A study of Schmidtea mediterranea with 10 samples.

Results

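A set of 45 genes of the planarian Schmidtea mediterranea, out of 36035 in the deposited tables, was more abundant in cells sorted for piwi-1 than in the cells left behind, and was at most slightly lower in cells sorted for agat transcripts than in cells without them. piwi-1 encodes a PIWI protein and marks neoblasts, the dividing stem cells that supply every other cell type of this flatworm. The agat transcripts, whose products are related to an amidinotransferase that acts in creatine synthesis, label late epidermal progenitors. These progenitors are made by neoblasts that leave the cell cycle, pass through an early progenitor stage and move outward, and transcripts of stem cell genes are known to fade along this path.

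All libraries came from whole, uninjured, starved worms of the clonal asexual strain CIW-4 (C4), dissociated and fixed in ACME, a mixture of acetic acid and methanol. Cells were labelled by hybridization chain reaction, which makes a cell fluoresce where a chosen transcript is present, and then sorted. The groups were agat-positive cells (pooled agat-1/2/3 probes, 4 libraries), agat-negative cells (4 libraries), piwi-1-positive cells (1 library) and piwi-1-negative cells (1 library). No group carried a mutation or a knockdown. The agat-negative gate holds every cell without the agat label, neoblasts included, and the piwi-1-negative gate every cell without the piwi-1 label. RNA of many cells was read as 1 library, so fewer cells of a type and less RNA per cell cannot be told apart.

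The genes were chosen by 2 log2 ratios of CPM (counts scaled to 1000000 assigned counts) with 1 added. P compares the piwi-1-positive with the piwi-1-negative library, and A compares the mean of the 4 agat-positive with the mean of the 4 agat-negative libraries. A gene was kept with a mean of at least 10 CPM over the 8 agat libraries and over both piwi-1 libraries, a P of 1.5 or more, and an A from -0.1 to under 3. Of 7569 genes of that level, 304 (4.02%) had such a P, and 45 of these had such an A. The other 259 had an A below -0.1, and 0 had an A of 3 or more. In that A range lay 14.8% of the 304 genes, against 48.7% of the 7265 genes with a P under 1.5. Because both ratios chose the genes, all values of both comparisons are given as a description, without a test.

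The limits of the choice cut through a continuous spread. The gene just inside the lower limit of A stood at -0.09 and the one just outside at -0.10. For P these values were 1.505 and 1.49, for the mean of the agat libraries 10.15 and 9.58 CPM, and for the mean of the piwi-1 libraries 12.5 and 6.13 CPM. No gene names accompany the IDs in the tables. The 45 genes are therefore given by ID, and no function can be stated for them.

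The libraries held 35081410 to 51821158 assigned counts. The agat-negative replicate 4 stood apart from the other agat libraries, with 34.5% unmapped reads, where the other 7 had 21.1% to 24.5%. It had counts in 28497 genes, where the others had counts in 29691 to 31402. The piwi-1-positive library had 29.7% unmapped reads and the piwi-1-negative library 19.7%, and the bearing of this on P was not tested. Replicate 4 of each agat gate has a column name of another pattern than replicates 1 to 3, and no label tells whether it was sorted on another occasion. The probe targets were higher in their own gates, but the agat genes were so to an uneven degree. agat-1 (SMED30018353) had 1627, 305, 234 and 1564 CPM in agat-positive replicates 1 to 4, against 14.7, 33.6, 94.6 and 28.4 CPM in agat-negative replicates 1 to 4. Within the agat-positive gate, agat-1 was thus far lower in replicates 2 and 3 than in 1 and 4, as were agat-2 and agat-3. These 2 libraries were not left out together, so the bearing of this split on A was not tested. piwi-1 (SMED30007406) had 1267 CPM in the piwi-1-positive and 199.9 CPM in the piwi-1-negative library. Among agat-positive libraries it was higher in replicates 2 and 3 (381.6 and 393.5 CPM) than in 1 and 4 (179.9 and 309.5 CPM). Its A was -0.65, so piwi-1 itself is not among the 45 genes, nor are the 3 agat genes, whose P ran from 0.42 to 0.65. Markers of other cell types could not be checked by ID.

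**Figure D1:**
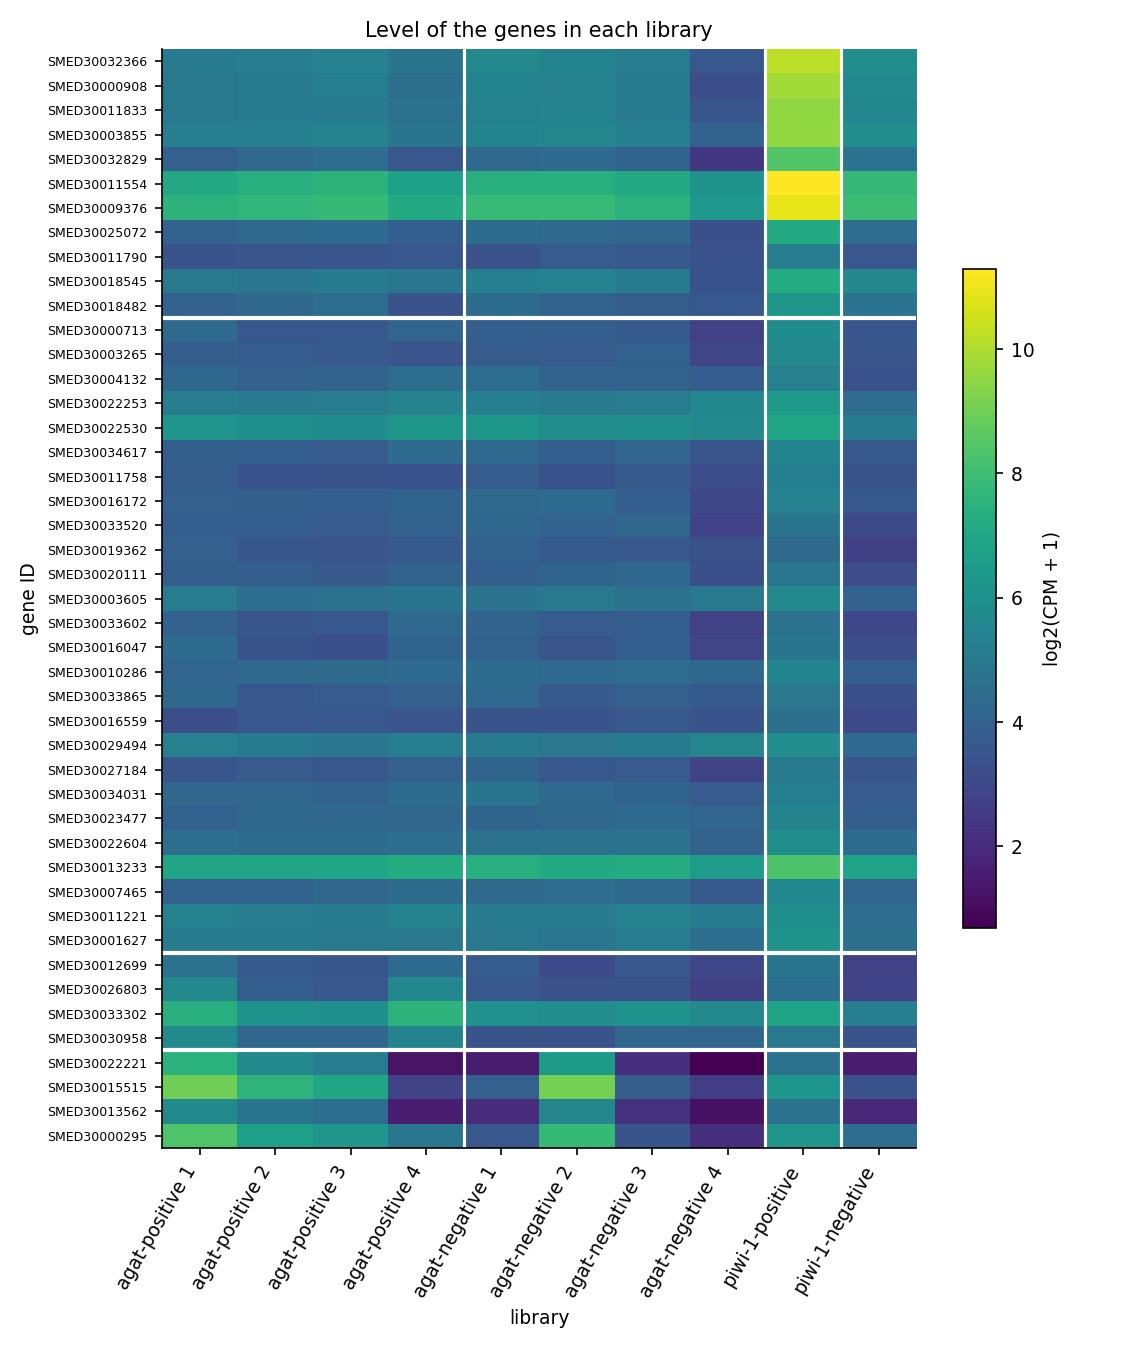
Level of the 45 genes, log2(CPM + 1), in the 4 agat-positive and 4 agat-negative libraries and in both piwi-1 libraries, positive left of negative. White horizontal lines part 4 groups. First come the 11 genes with even means of the agat gates that lay below the piwi-1-negative level, then the other 26 even genes. Below them are the 4 genes with an A of 0.5 or more and the 4 genes that were uneven between libraries. The top block is bright in the piwi-1-positive library, and the bottom block is bright in agat-positive replicates 1 to 3 and agat-negative replicate 2.

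The 45 genes fell into different patterns, and most of them had nearly even mean levels in the agat gates. The agat-positive mean of a gene was 2.76% to 269% of its piwi-1-positive level, with a median of 43.0%, where the median over all genes of this level was 114%. P ran from 1.505 to 4.31 with a median of 1.70, and was 2 or more in 13 genes. A ran from -0.09 to 1.68 with a median of 0.01, where the median over all 7569 genes was -0.11. A was above 0 in 23 of the 45 genes (51.1%). The share was 33.4% of all genes of this level, but the lower limit of A raises it by construction, and it was 69.0% of the 3585 genes of this level with an A in the same range. The genes were parted into 4 groups, a grouping made once the values were known. In 4 genes the highest of the 8 agat libraries was at least 10 times the lowest, which was so for 2.43% of all genes of this level. Another 4 genes had an A of 0.5 or more. The remaining 37 genes are called even because the means of the agat gates were close, with an A of at most 0.34. Single libraries could still differ. Without agat-negative replicate 4, 21 of these 37 genes had an A below -0.1.

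In edgeR, fitted over the 22954 genes past its filter, 0 of the 45 genes had an adjusted p under 0.05, against 0.00871% of all genes. The same fit did not call the probe targets agat-1, agat-2 and agat-3 either (edgeR adjusted p 0.1996, 0.1996 and 0.2073). Their agat-positive means were 21.8, 21.6 and 30.3 times the agat-negative ones. A gene that was not called is therefore not shown to be even. At an unadjusted p under 0.05, edgeR had 4 of the 45 genes higher in agat-positive cells (5.26% of all genes) and 0 lower (5.38% of all genes). DESeq2 called 1 of the 45 genes, SMED30026803, where it called 1.85% of all genes. The agat gates did not overlap in CPM scaled by edgeR's TMM factors in 2 genes, both higher in agat-positive cells (7.93% of all genes of this level), and in 0 genes on the lower side (3.36%). Nothing is read from these counts, since A chose the genes.

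**Figure D2:**
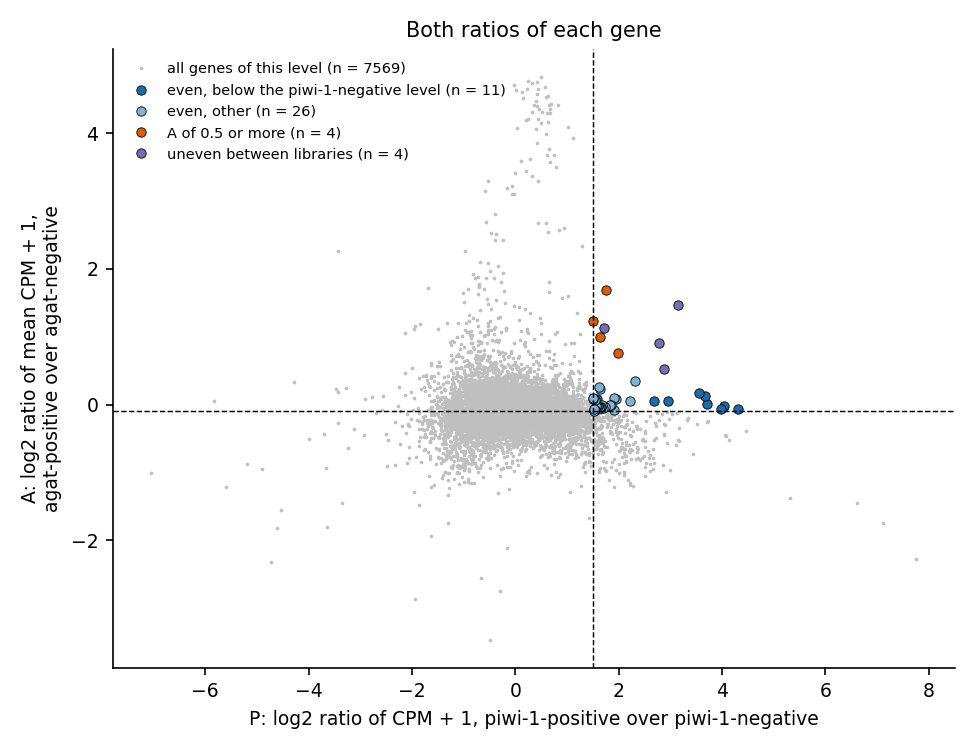
P on the horizontal and A on the vertical axis for all 7569 genes of this level (grey) and the 45 genes, coloured by group; dashed lines mark the limits of 1.5 for P and -0.1 for A. Most of the 45 genes crowd the corner of both limits, while the 11 dark blue genes run out to a P of 4.31.

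Among the 37 even genes, 11 had a mean in both agat gates that lay below even the piwi-1-negative level, so their high P came with a high piwi-1-positive library. This group held the 6 highest P of all 45 genes, and 8 of its 11 genes had a P of 2 or more. SMED30032366, with the highest P (4.31), had 31.2, 35.3, 40.4 and 26.2 CPM in agat-positive replicates 1 to 4, against 50.5, 43.1, 34.2 and 10.9 CPM in agat-negative replicates 1 to 4. The same gene had 1204 CPM in the piwi-1-positive and 59.8 CPM in the piwi-1-negative library, which gives a ratio of 20.1 with a 95% exact binomial interval of 19.3 to 21.1. Its agat gates overlapped, and the lowest of its 10 libraries was agat-negative replicate 4.

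SMED30000908, second by P at 4.04, had 29.2, 32.2, 37.2 and 23.4 CPM in agat-positive replicates 1 to 4, against 43.4, 40.3, 31.1 and 8.38 CPM in agat-negative replicates 1 to 4. In the piwi-1 pair it stood at 900.6 CPM in the positive and 53.7 CPM in the negative library, a ratio of 16.8 with an interval of 16.02 to 17.6. SMED30009376 was among the 2 most abundant of the 45 genes in agat-positive cells, with 184, 199.7, 219 and 144 CPM in replicates 1 to 4, against 227, 234, 182 and 79.0 CPM in agat-negative replicates 1 to 4. It reached 1930 CPM in the piwi-1-positive and 247 CPM in the piwi-1-negative library, a ratio of 7.80 with an interval of 7.63 to 7.98. In these genes, too, the agat gates overlapped and agat-negative replicate 4 was the lowest library. Intervals cover the counting error of reads only, and PCR copies were counted as reads. They leave out the spread between libraries, since each piwi-1 gate had 1 library.

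For these 11 genes the means of the agat gates were close to each other and low. The closeness depended on agat-negative replicate 4. Without it, 9 of the 11 genes had an A below -0.1, and their median A was -0.198. Their agat-positive mean was 2.76% to 28.3% of the piwi-1-positive level, with a median of 5.91%, and the agat-negative median was 5.26%. piwi-1 had 24.95% in agat-positive and 39.2% in agat-negative cells. Together the 11 genes held 0.0529%, 0.0598%, 0.0660% and 0.0422% of assigned counts in agat-positive replicates 1 to 4, against 0.0670%, 0.0676%, 0.0544% and 0.0234% in agat-negative replicates 1 to 4. They held 0.878% in the piwi-1-positive and 0.0806% in the piwi-1-negative library. The piwi-1-positive share was above that of all other libraries, which the limit of P and the grouping largely set. Agat-negative replicate 4 had the lowest share.

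In the other 26 even genes both agat gates lay between the piwi-1-negative and the piwi-1-positive level. Their P was smaller, with a median of 1.62 and a highest value of 2.32. The agat-positive mean was 23.6% to 59.7% of the piwi-1-positive level, with a median of 44.1%, and the agat-negative median was 43.0%. As a group they held 0.0663%, 0.0590%, 0.0577% and 0.0715% of assigned counts in agat-positive replicates 1 to 4, against 0.0722%, 0.0640%, 0.0674% and 0.0507% in agat-negative replicates 1 to 4. The piwi-1-positive library held 0.147% and the piwi-1-negative library 0.0445%.

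The 2 genes with the lowest A belong here. SMED30013233 had 122, 121, 121 and 150.3 CPM in agat-positive replicates 1 to 4, against 159.5, 144, 151 and 93.0 CPM in agat-negative replicates 1 to 4. It had 324 CPM in the piwi-1-positive and 112 CPM in the piwi-1-negative library, which gives a ratio of 2.89 with an exact interval of 2.78 to 2.99, and its A was -0.09. SMED30022253 had 34.3, 32.3, 34.3 and 41.6 CPM in agat-positive replicates 1 to 4, against 37.1, 31.4, 34.2 and 48.1 CPM in agat-negative replicates 1 to 4. Its piwi-1 levels were 82.8 CPM in the positive and 21.2 CPM in the negative library, which gives a ratio of 3.90 with an interval of 3.598 to 4.23, and its A was -0.08. In both genes the agat gates overlapped and the piwi-1-positive library was the highest of all 10, as it was in all 37 even genes. Over the whole set this was so in 38 of the 45 genes (84.4%). It was so in 97.3% of the 259 other piwi-1-enriched genes and in 22.3% of all genes of this level. The limit of P favours it without requiring it. Parting off the genes with high agat libraries favours it further in the 37.

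**Figure D3:**
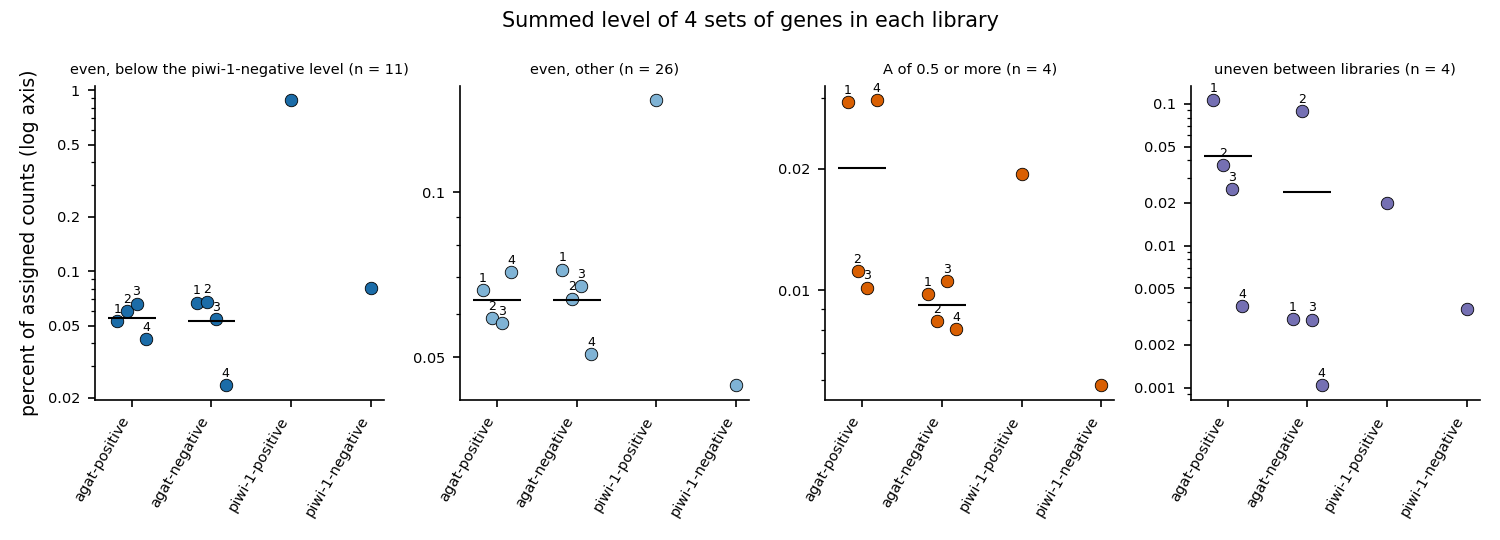
Percent of assigned counts, on log axes, held by each of the 4 groups of genes in both agat gates and both piwi-1 gates, each positive gate left of its negative one; points are libraries, numbers are replicates and bars are means of 4 libraries. Agat-positive replicates 1 and 4 stand above all agat-negative libraries in the third panel, and agat-negative replicate 2 stands beside the agat-positive libraries in the fourth.

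The 4 genes with an A of 0.5 or more were, among the agat libraries, most abundant in agat-positive replicates 1 and 4, the libraries with the most agat-1. An A of this size was found in 8 of the 45 genes, the 4 uneven genes included. It was found in 4.74% of all genes of this level and in 8.51% of those with an A in the same range, and since A chose the genes nothing is read from this. SMED30026803, with the highest A (1.68), had 50.7, 13.3, 10.9 and 48.5 CPM in agat-positive replicates 1 to 4, against 10.8, 9.43, 9.96 and 5.51 CPM in agat-negative replicates 1 to 4. All agat-positive libraries lay above all agat-negative ones, replicate 3 by the least. The gene had 22.8 CPM in the piwi-1-positive and 6.10 CPM in the piwi-1-negative library, which gives a ratio of 3.74 with an exact interval of 3.22 to 4.37.

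SMED30033302 had 165.7, 68.3, 62.5 and 185 CPM in agat-positive replicates 1 to 4, against 64.3, 57.6, 67.5 and 50.8 CPM in agat-negative replicates 1 to 4. Agat-positive replicate 3 lay within the agat-negative range in CPM, and above it with TMM factors. SMED30030958 had 53.1, 18.1, 17.6 and 42.9 CPM in agat-positive replicates 1 to 4, against 9.86, 9.83, 17.3 and 17.0 CPM in agat-negative replicates 1 to 4. Its agat-positive libraries all lay above the agat-negative ones in CPM, by little, and overlapped them with TMM factors. SMED30012699, whose agat gates overlapped, had 23.7, 12.0, 10.5 and 19.8 CPM in agat-positive replicates 1 to 4, against 12.8, 7.04, 10.8 and 6.78 CPM in agat-negative replicates 1 to 4. For SMED30033302 the piwi-1-positive library had 115 CPM, for SMED30030958 29.9 CPM and for SMED30012699 26.4 CPM, and the piwi-1-negative library had 36.3, 9.86 and 5.88 CPM. The choice to name these last 3 genes was made on seeing their values. Summed, the 4 genes came to 0.0200% ± 0.0109 of a library in agat-positive cells and 0.00918% ± 0.00119 in agat-negative cells (SD, n = 4 each). By the mean of the agat-positive libraries, 3 of the 4 genes stood above their piwi-1-positive level, and SMED30012699 stood at 62.4% of it. In each of those 3 genes only agat-positive replicates 1 and 4 stood above that level, and the other agat-positive replicates lay below it.

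The 4 uneven genes were higher in agat-positive replicates 1 to 3 than in agat-negative replicates 1, 3 and 4, but agat-negative replicate 2 stood above agat-positive replicates 2 and 3, and in 3 of the genes agat-positive replicate 4 was low. SMED30015515, the most abundant of the 45 genes in agat-positive cells by its mean, had 501, 190.3, 121 and 6.35 CPM in agat-positive replicates 1 to 4, against 14.4, 534, 13.2 and 5.24 CPM in agat-negative replicates 1 to 4. SMED30022221 had 176, 49.8, 34.8 and 1.37 CPM in agat-positive replicates 1 to 4, against 1.88, 86.8, 3.28 and 0.607 CPM in agat-negative replicates 1 to 4. SMED30000295 and SMED30013562, which were named on seeing their values, followed much the same order. In each of the 4 genes agat-negative replicate 2 was over 5 times every other agat-negative library (0.211% of all genes of this level), agat-positive replicate 4 was the lowest of the positive ones, and agat-negative replicate 4 was the lowest of all 8.

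The ratios of the uneven genes turned on those libraries. Without agat-negative replicate 2, A was 4.11 for SMED30015515, 4.51 for SMED30022221, 3.89 for SMED30000295 and 2.88 for SMED30013562, against 0.53, 1.46, 1.12 and 0.91 with all libraries. Without agat-positive replicate 1, A was -0.42 for SMED30015515 and 0.30 for SMED30022221. In the piwi-1 pair SMED30015515 had 76.2 CPM in the positive and 9.50 CPM in the negative library, and SMED30022221 had 24.97 CPM in the positive and 1.92 CPM in the negative one. Both piwi-1 levels lay inside the range of the 8 agat libraries in these genes. Summed, the 4 uneven genes came to 0.0429% ± 0.0442 of a library in agat-positive cells and 0.0239% ± 0.0430 in agat-negative cells (SD, n = 4 each).

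Agat-negative replicate 4 bore on most of the 45 genes. It was the lowest of the 8 agat libraries in 35 of them (77.8%), against 44.7% of all genes of this level and 23.2% of the 259 piwi-1-enriched genes with a lower A. A low value there lowers the agat-negative mean and so raises A, which the choice of genes required. Per gene, its CPM was a median 0.57 times the mean of the other 3 agat-negative libraries in the 45 genes, 0.85 times in the 259 genes and 0.79 times in all genes of this level. Without it, 21 of the 45 genes had an A below -0.1, and 24 stayed among 29 genes that met the limits. Of the 11 even genes below the piwi-1-negative level, 9 were then below -0.1, and 0 had an A above 0. SMED30032366 had an A of -0.35 in place of -0.06, SMED30000908 of -0.32 in place of -0.01, and SMED30009376 of -0.20 in place of 0.05. All 4 genes with an A of 0.5 or more kept an A of at least 0.64. Leaving out this library also lowered the median A of all genes of this level, from -0.11 to -0.16. That of the 45 genes went from 0.01 to -0.10. With TMM factors and without agat-negative replicate 4, a setting added after seeing the data, 32 of the 45 genes had an A above 0. The share of unmapped reads was highest in the same library, and its part in these values was not tested.

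**Figure D4:**
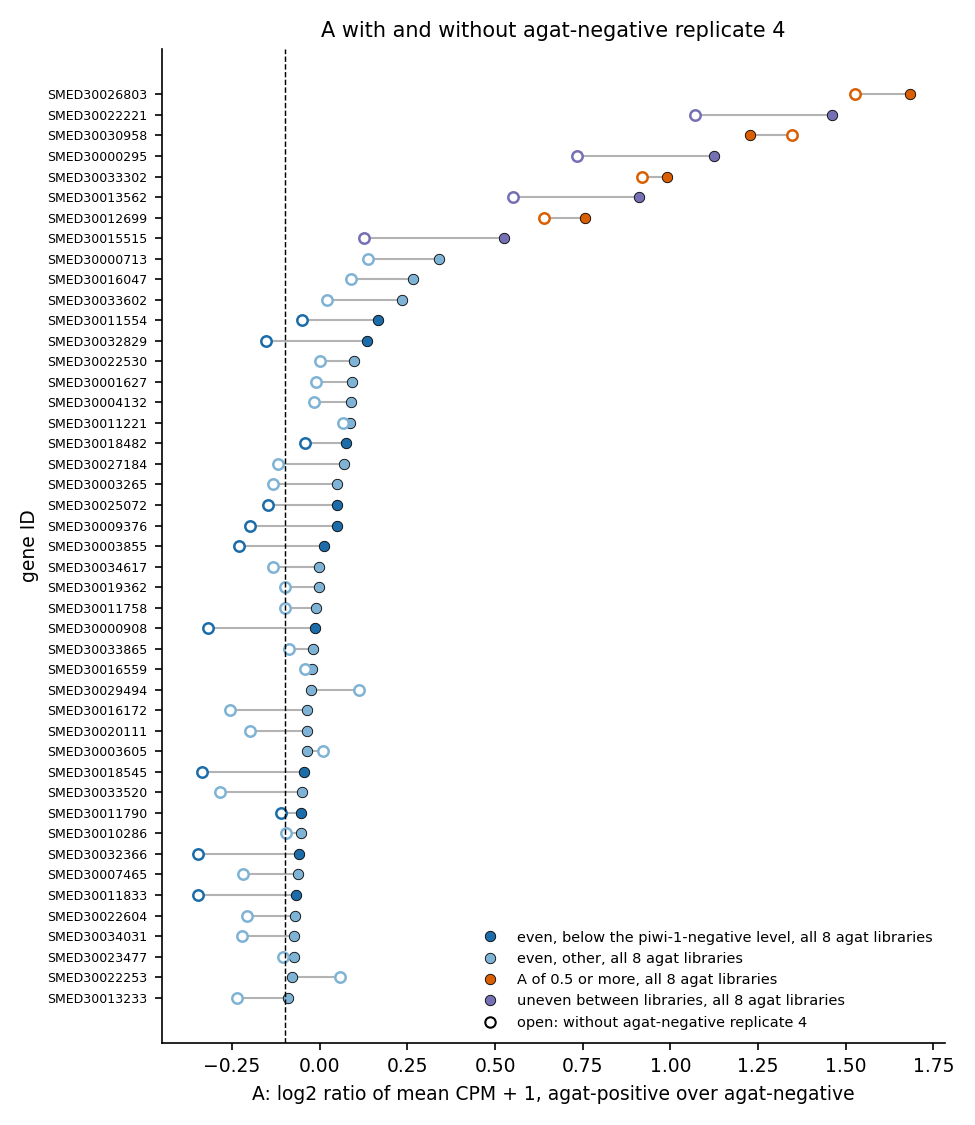
A of each of the 45 genes with all 8 agat libraries (filled) and without agat-negative replicate 4 (open), coloured by group; the dashed line is the lower limit of -0.1. Of the open points 21 lie left of the line, 9 of them from the 11 dark blue genes.

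The number of genes also moved with agat-negative replicate 1, to 81 genes without it, 43 of the 45 among them. With TMM factors 46 genes met the limits, of which 21 were among the 45, and the other 24 had fallen below the limit of P. DESeq2 size factors kept 26 of the 45 among 65 genes. TPM kept 16 of the 45 among 46 genes, with 21 of the 45 below the limit of A. Over all genes of this level TMM factors moved the median of A to -0.02 in place of -0.11, and that of P to -0.36 in place of -0.12. A was then above 0 in 44 of the 45 genes, where TPM, the authors' length-scaled measure, gave 14. Whether a gene near 0 stood above or below the agat-negative level therefore depended on the scaling.

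Beside the 259 piwi-1-enriched genes with an A below -0.1, the 45 genes had a smaller P (median 1.70 against 1.99) and a lower level in the piwi-1-positive library (median 50.2 against 82.5 CPM). Their agat-positive levels were alike, at a median of 18.8 CPM in both sets, and the agat-negative medians were 17.7 and 26.3 CPM. Both agat gates lay between the piwi-1 levels in 60.0% of the 45 and 57.5% of the 259 genes, and below the piwi-1-negative level in 24.4% and 23.6%. TPM per CPM falls as the transcript gets longer, but it is not a measure of length alone, since both values come from different tools. It had a median of 0.578 (quartiles 0.419 and 1.74) in the 45 genes and 0.581 (0.358 and 1.07) in the 259. In sum the 45 genes came to 0.182% ± 0.0491 of a library in agat-positive cells and 0.150% ± 0.0601 in agat-negative cells (SD, n = 4 each). The 37 even genes alone came to 0.119% ± 0.00409 in agat-positive and 0.117% ± 0.0293 in agat-negative cells. All 45 genes made up 1.06% of the piwi-1-positive and 0.135% of the piwi-1-negative library. The 11 even genes below the piwi-1-negative level held 0.878% of the piwi-1-positive library. The 259 genes came to 1.17% ± 0.222 in agat-positive cells and 1.73% ± 0.295 in agat-negative cells.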

How the data were processed

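Gene expression was measured in 10 libraries of sorted planarian cells, made by SMART-seq v4 amplification and Nextera XT per the labels' protocols. The authors deposited read counts per gene and TPM values. STAR 2.7.10b and RSEM 1.3.1 are named in the submitters' processing notes. Build, annotation and strandedness are unknown (not given in the sources used here), so reads shared between related genes cannot be judged. In the TPM table the name repeats the ID in all 36035 rows. Columns were matched to samples through the labels. The 4 count rows that name no gene held 22.8% to 36.98% of reads and were left out.

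The members and lists were chosen with earlier results of these data known. The 2 genes highest and lowest in A, highest in P and highest in agat-positive CPM were to be named. Others were added after seeing their values. The 4 against 4 agat libraries, called biological replicates by the labels, were fitted over all genes with edgeR 4.0.16 in R 4.3.3 (quasi-likelihood, TMM, filterByExpr, no replicate block, Benjamini-Hochberg), with DESeq2 1.42.0 as an alternative. Scripts were tested on simulated counts. Replicates differed by more than the sampling noise of reads (chi-square per gene 11.8 to 301). With 1 library per gate, the piwi-1 comparison was not tested. At the depth of the smallest library 1 count is 0.0285 CPM.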

Additional observations from a re-analysis of the deposited data

Results flagged for a closer look

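In 44 groups of 4 libraries, covering the genes described by ID and the sums of each group of genes, 6 values lay far from the other 3 libraries of their gate. About 1 in 20 groups would hold such a value by chance, and the groups share libraries and genes. That rate does not hold for the uneven genes, which were grouped by the wide range of their agat libraries. SMED30000295 and SMED30013562 were also named on seeing their values. Of the 6 values, 5 were high values of agat-negative replicate 2 in the uneven genes. They were 534 CPM for SMED30015515, 217 CPM for SMED30000295, 86.8 CPM for SMED30022221, 45.1 CPM for SMED30013562, and 0.0884% of assigned counts for the 4 genes summed. The other value was 150.3 CPM for SMED30013233 in agat-positive replicate 4, where the other agat-positive libraries had 121 to 122 CPM. The causes were not tested.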

How the results depend on the processing

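The number of genes meeting the limits was 45, and was 19 with a pseudocount of 10, 274 at a mean of 1 CPM or more, 18 at 20 CPM or more, 13 at a P of 2 or more, 110 with both ratios centred on the median of all genes, 29 without both libraries numbered 4, and 29 without agat-negative replicate 4 under TMM factors, a setting added after seeing the data. Leaving out 1 agat library gave 29 (without agat-negative replicate 4) to 81 (without agat-negative replicate 1). For the 45 genes as chosen, the median A of 0.01 was 0.14 with TMM factors, 0.17 with DESeq2 size factors, -0.10 in TPM, -0.077 without both libraries numbered 4, 0.073 without agat-negative replicate 4 under TMM factors, and -0.10 to 0.14 without 1 library. A above 0 was found in 23 genes, and in 44, 44 and 14 with TMM, DESeq2 factors and TPM, 15 without both libraries numbered 4, and 16 to 34 without 1 library. The log2 ratio of the summed levels, 0.28, ran from 0.07 to 0.56 without 1 library. Genes higher in all agat-positive libraries numbered 2, but 0 in TPM, 4 without both libraries numbered 4, and 2 to 3 without 1 library. On the lower side there were 0, but 1 in TPM. For these other settings the share over all genes was not counted. Gates of fewer libraries also part more easily, so nothing is read from the changes in these counts. The median P of 1.70 was 1.47 with TMM factors and 1.26 with a pseudocount of 10. Over all genes edgeR called 2 higher and 0 lower, and 1 higher scaled by library size, 0 without both libraries numbered 4, and 0 to 98 without 1 library, the 98 without agat-positive replicate 3. DESeq2 called 403 higher and 78 lower, 1 of them (higher) among the 45. The causes were not tested. Same-numbered agat libraries did not deviate together (correlation of deviations -0.0472 to -0.0049), which gives no sign that the numbers pair them. Both libraries numbered 4 were left out together because the labels name their columns in another pattern. With the replicate block edgeR called 0 genes, and the median A from same-numbered ratios was 0.10. P rests on 1 library per gate, and its spread between replicates is unknown.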

Other observations

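The high level in agat-negative replicate 2 seen in the 4 uneven genes was not limited to genes with a high P. Among all 7569 genes of this level, 16 (0.211%) had over 5 times more CPM in agat-negative replicate 2 than in any other agat-negative library, and 4 of these were among the 45 genes. In 10 of the other 12, agat-positive replicates 1 to 3 all stood above agat-positive replicate 4, a count given without the share over all genes. The P of these 12 genes ran from -5.82 to 1.13 with a median of -1.96, and 8 were more than 1 log2 unit lower in the piwi-1-positive than in the piwi-1-negative library. This count was made after the values of the 4 genes had been seen.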
